A study of Mus musculus with 6 samples.

Results

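The genes described here are the SOCS family: Cish, which encodes CIS, and Socs1 to Socs7. They were chosen by name, and all 8 were found among the 39089 genes of the deposited gene table. The family was picked with differences between the groups in these data already known, that of Socs4 above all, so its values between groups are a description and support nothing. The cells were RAW264.7, a macrophage-like leukaemia line of the mouse that the labels call wild type. All 6 libraries come from cells given lipopolysaccharide (LPS, a bacterial endotoxin that activates macrophages) at 100 ng/mL for 48 h. In 3 of them, called LIPUS here, the cells also had low-intensity pulsed ultrasound (45 mW/cm2) in 2 sessions of 25 min, separated by 24 h. The other 3, called LPS here, had none. There were no cells without LPS, so induction of the family by LPS was not measured. Nothing in the labels says whether the repeats were separate cultures, so p-values measure the spread between these libraries only.

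SOCS proteins are the feedback inhibitors of cytokine signalling. A cytokine receptor activates Janus kinases (JAKs), which phosphorylate STAT transcription factors. STATs then induce SOCS genes, whose products bind the receptor or the kinase and shut the signal down. Each member has a central SH2 domain, which binds phosphotyrosine, and a SOCS box at its end, which recruits a ubiquitin ligase through elongins B and C and cullin 5. SOCS1 and SOCS3 also block JAK activity directly through a short kinase inhibitory region. In macrophages SOCS1 restrains interferon and Toll-like receptor responses, and SOCS3 restrains signals through the shared interleukin-6 receptor subunit. CIS and SOCS2 act mainly on receptors that use STAT5. SOCS4 to SOCS7 have longer regions before the SH2 domain and are tied to receptor tyrosine kinases and adaptor proteins more than to cytokine receptors.

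Libraries held 14171061 to 15956693 counts, and every pair had a Spearman correlation of at least 0.994 across genes. All 10 macrophage markers listed were tested. Their summed level was 11549 to 12026 CPM (counts relative to library size) in LPS and 10801 to 12477 CPM in LIPUS libraries. Most of the sum was Lyz2, named after its values were seen, with means of 8179 CPM in LPS and 7900 CPM in LIPUS libraries. By edgeR's quasi-likelihood test 2 of the 10 had an unadjusted p below 0.05, against 4.61% of all tested genes, and 0 passed after adjustment. Of 14 markers of other cells, 7 had no count in any library. All 14 together came to 2.08 to 2.47 CPM in LPS and 1.45 to 1.96 CPM in LIPUS libraries. Only 2 were tested, of which 1 had an unadjusted p below 0.05 by the same test and 0 passed after adjustment. It was Col1a1, named after its values were seen, with 52 counts in LPS and 19 in LIPUS libraries.

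Sequences around the start sites are shown for 3 members: Socs3, the most abundant, Cish, a textbook STAT5 target, and Socs4, the member with the smallest p between the groups. RefSeq's promoter table (GRCm38.p6) held 4 of the 8 members, with 250 bases before and 50 after the start. The capitals mark each match to the STAT motif TTCNNNGAA, which reads the same on both strands. All are written 5′ to 3′ on the gene's own strand.

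Socs3, chr11:117969317-117969616, minus strand: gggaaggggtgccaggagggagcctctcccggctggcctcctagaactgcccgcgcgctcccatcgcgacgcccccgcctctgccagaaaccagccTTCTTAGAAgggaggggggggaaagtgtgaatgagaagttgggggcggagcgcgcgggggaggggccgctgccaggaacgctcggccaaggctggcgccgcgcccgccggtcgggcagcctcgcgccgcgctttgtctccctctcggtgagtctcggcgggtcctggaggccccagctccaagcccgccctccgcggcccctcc
Cish, chr9:107296409-107296708, plus strand: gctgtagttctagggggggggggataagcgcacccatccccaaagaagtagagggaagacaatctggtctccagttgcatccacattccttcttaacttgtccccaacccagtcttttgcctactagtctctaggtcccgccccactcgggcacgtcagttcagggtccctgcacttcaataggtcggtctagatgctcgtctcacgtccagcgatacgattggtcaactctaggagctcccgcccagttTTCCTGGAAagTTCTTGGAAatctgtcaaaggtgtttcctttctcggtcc
Socs4, chr14:47276670-47276969, plus strand: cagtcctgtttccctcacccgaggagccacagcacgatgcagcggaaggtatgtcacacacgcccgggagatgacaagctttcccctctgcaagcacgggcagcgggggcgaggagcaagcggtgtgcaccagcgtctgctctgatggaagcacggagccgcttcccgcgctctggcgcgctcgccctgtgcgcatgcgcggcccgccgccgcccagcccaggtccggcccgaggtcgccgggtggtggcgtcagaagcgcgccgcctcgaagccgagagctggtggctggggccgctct

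The Socs3 window held 1 match, 154 to 146 bases before the start, and the Cish window held 2, at bases 1 to 9 and 12 to 20 after it. The windows of Socs4 and Socs1 held none. For Socs3 the start used here differs from that of the deposited gene, whose span (117966079 to 117970336) holds the whole window. Of 32851 promoters in the table, 8.3% held the motif. The GC box (GGGCGG, either strand, present in 35.7% of promoters) was found in all 4 windows. None of the 4 held the AP-1 motif TGANTCA (7.81% of promoters), the cyclic AMP response element TGACGTCA (1.79%), the TATA motif TATAAA (13.6%), the wider-spaced STAT6 motif (6.95%), the NF-kB motif (8.46%) or the SRF CArG box (1.63%). A match is a run of letters only, and no binding was measured.

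The members also differ in their messages, by the GENCODE M21 transcripts matched to curated RefSeq entries. CIS, SOCS1, SOCS2 and SOCS3 are encoded by 257, 212, 198 and 225 codons, and SOCS4, SOCS5, SOCS6 and SOCS7 by 436, 536, 533 and 579. Socs4 has a 3′ untranslated region of 5182 bases with 17 copies of ATTTA, the core of AU-rich decay elements. That count is at or above that of 99.1% of 20512 genes, but the region's length is also at or above that of 97.2%. Per kilobase of the region Socs4 has 3.28 copies, Socs3 2.71, Socs6 1.97, Cish 1.84, Socs2 1.72, Socs5 1.54, Socs7 0.965 and Socs1 0. Socs3 has 4 copies in 1474 bases and Cish 2 in 1087. Socs7 has an untranslated region of 5184 bases with 5 copies. Socs7 has 10 exons and the others 2 or 3.

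The family's levels spanned more than 2 orders of magnitude, with Socs3 far above the rest. Levels between genes are compared on the deposited TPM scale, which is reads per base of gene length scaled so that all libraries have one total. Socs3 (chromosome 11, 117966079 to 117970336, minus strand, mm10) had 71.8, 98.4 and 103.2 TPM in LPS libraries 1 to 3 and 79.96, 72.9 and 90.95 TPM in LIPUS libraries 1 to 3. Its mean over the 6 libraries was 86.2 ± 13.3 TPM (SD), at or above the mean level of 87.6% of tested genes. It made up 55.5% to 65.8% of the family's summed TPM, depending on the library. Socs4 followed with 26.5 ± 3.43 TPM and Socs7 with 17.2 ± 1.29 TPM (SD, n = 6 each). Those 3 together held 88.3% to 92.1% of the family's TPM.

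The other 5 members were low. Socs6 had 5.06 ± 0.61 TPM, Socs5 4.83 ± 0.55, Socs1 3.22 ± 0.59, Cish 0.76 ± 0.18 and Socs2 0.51 ± 0.06 TPM (SD, n = 6 each). Of the 7 neighbouring pairs in this order, 5 did not overlap in any of the 6 libraries. Socs6 and Socs5 overlapped, with Socs6 higher in 4 of 6 libraries, and so did Cish and Socs2, with Cish higher in 5 of 6. Socs3 and Socs1, whose products share the kinase inhibitory region, thus stood at means of 86.2 and 3.22 TPM in the same LPS-treated cells. In bulk RNA, fewer cells that express a gene and less of its RNA per cell cannot be told apart.

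**Figure D1:**
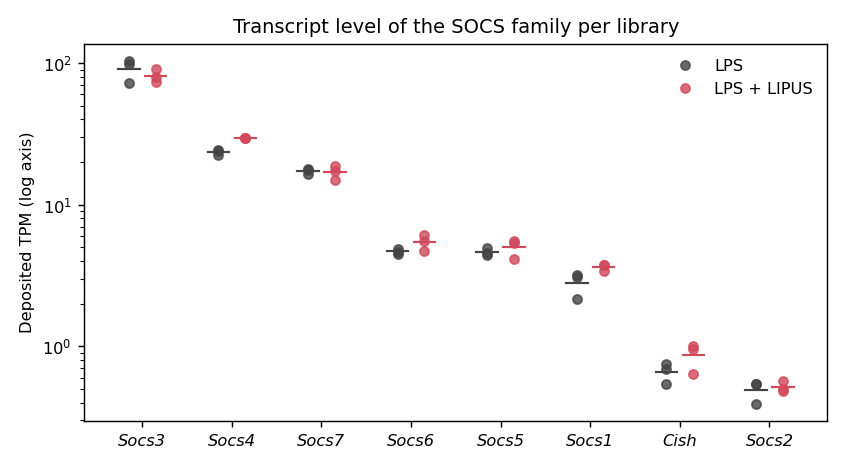
Deposited TPM (log axis) of the 8 members, ordered by mean, in each library. Points are libraries and short lines group means (n = 3), grey for LPS and red for LPS with LIPUS. Socs3 lies at 71.8 to 103.2 TPM, and Socs2 and Cish lie at or below about 1 TPM.

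Part of this order rests on the gene length used. The deposited length joins all exons of a gene, which for Socs2 is 11867 bases, while its most read curated transcript, NM_007706.4, has 2222. With that transcript's own reads and length, Socs2 stood at 2.00 ± 0.33 on the same scale, above Cish at 1.08 ± 0.25, and Socs5 at 9.71 ± 1.12 passed Socs6 at 4.80 ± 0.60 (SD, n = 6 each). The ranges of both pairs were then apart. Socs3, Socs4 and Socs7 kept the first 3 places.

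Between the groups no member passed the test. By edgeR's quasi-likelihood test 0 of the 8 members passed an adjusted p of 0.05, where 0% of 12571 tested genes (0 genes) did. DESeq2 and limma-voom also called 0 members. At an unadjusted p below 0.05 there was 1 member, Socs4, against 4.61% of all tested genes. The log2 fold change, LIPUS over LPS, was positive in 6 members and negative in 2, where 47.6% of all tested genes were positive. The median was 0.14 over the members and -0.0052 over all tested genes. In 3 members the CPM values of the groups did not overlap, all 3 higher with LIPUS, against 9.72% of tested genes without overlap in either direction, 5.09% with LIPUS higher and 4.63% with LIPUS lower. The family was chosen with this contrast known, so nothing is read from these shares.

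Socs4 (chromosome 14, 47276920 to 47296102, plus strand), whose product is linked in human cells to turnover of the EGF receptor, had the clearest separation. It stood at 82.4, 72.9 and 79.8 CPM in LPS libraries 1 to 3 and at 96.3, 104.6 and 92.0 CPM in LIPUS libraries 1 to 3. Every LIPUS library lay above every LPS library. The means were 78.4 ± 4.89 and 97.6 ± 6.44 CPM (SD, n = 3 each), a 95% interval of the fold from 1.14 to 1.36. On the log2 scale the fold change was 0.32 ± 0.06 (SE), and edgeR's adjusted p was 0.243. Socs4 ranked 4th by p of all tested genes. Leaving out LIPUS library 3, the lowest of its group, gave a log2 fold change of 0.36 and an adjusted p of 0.0249. With no filter on low counts the adjusted p was 0.000927. The adjusted p over all alternatives ran from 0.000927 to 1.00, and the fold change from 0.26 to 0.36, positive in all 18. The authors' deposited table gives a log2 fold change of 0.32 and an unadjusted p of 2.19e-05, which is 0.0952 after Benjamini-Hochberg adjustment over that table.

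Socs3 had the lower mean with LIPUS and varied within its groups. Its levels were 127.5, 168.6 and 181.1 CPM in the LPS libraries and 136.3, 134.0 and 148.9 CPM in the LIPUS libraries. LPS libraries 2 and 3 were high, while LPS library 1 was the lowest of all 6, so the groups overlapped. The means were 159.1 ± 28.1 and 139.7 ± 8.004 CPM (SD, n = 3 each). On the log2 scale the difference was -0.19 ± 0.09 (SE), and its 95% interval ran from -0.37 to 0.0016. The fold change was -0.32 without LPS library 1 and -0.080 without LPS library 3. The SD of log2 CPM within groups was 0.20, at or above that of 99.5% of the 2299 tested genes whose mean CPM was within a factor of 2 of its own. For Socs4 the same SD was 0.093 and the percentile 72.7, and for Socs7 0.063 and 32.5.

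The STAT5-linked pair of Cish and Socs2 was near the limit of what this depth can resolve. Cish (chromosome 9, 107296659 to 107302784, plus strand) had 23, 24 and 17 counts in LPS libraries 1 to 3, against 30, 30 and 18 with LIPUS. LIPUS library 3 lay among the LPS libraries. Its log2 fold change was 0.38 ± 0.30 (SE), with a 95% interval of the fold from 0.84 to 2.02. Socs2 (chromosome 10, 95383903 to 95417321, minus strand) had 50, 35 and 47 counts against 47, 42 and 39. The groups overlapped, at a log2 fold change of 0.05 ± 0.22 (95% interval of the fold 0.75 to 1.43).

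Socs1 (chromosome 16, 10783808 to 10785536, minus strand), the interferon-response inhibitor, had 32, 32 and 21 counts in LPS libraries 1 to 3, against 35, 33 and 33 with LIPUS. In CPM these were 2.03, 2.03 and 1.41 against 2.38, 2.31 and 2.28. The groups did not overlap, but LPS library 3 set much of the distance: the log2 fold change was 0.34 ± 0.26 (SE, 95% interval of the fold 0.87 to 1.85), and 0.20 without that library.

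The remaining longer members, Socs5, Socs6 and Socs7, were measured more precisely. Socs6 (chromosome 18, 88865169 to 88894364, minus strand), whose product binds the receptor kinase KIT, had 14.1, 14.3 and 13.5 CPM in the LPS libraries and 17.7, 14.7 and 15.5 CPM in the LIPUS libraries. Its groups stood apart in CPM by a narrow margin and overlapped in TPM. The log2 fold change was 0.19 ± 0.11 (SE, 95% interval of the fold 0.98 to 1.33).

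Socs5 (chromosome 17, 87107278 to 87137647, plus strand), described in mice as a brake on interleukin-4 signalling, had 21.4, 23.3 and 22.0 CPM against 25.1, 20.8 and 24.8 CPM. LIPUS library 2 was the lowest of the 6 and the other 2 LIPUS libraries the highest, and the fold lay between 0.93 and 1.21 (95% interval). Socs7 (chromosome 11, 97362292 to 97398542, plus strand), whose product binds the adaptor NCK, had 60.4, 63.3 and 63.8 CPM against 61.2, 57.2 and 63.7 CPM. The groups overlapped, and the 95% interval of the fold was 0.89 to 1.06.

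**Figure D2:**
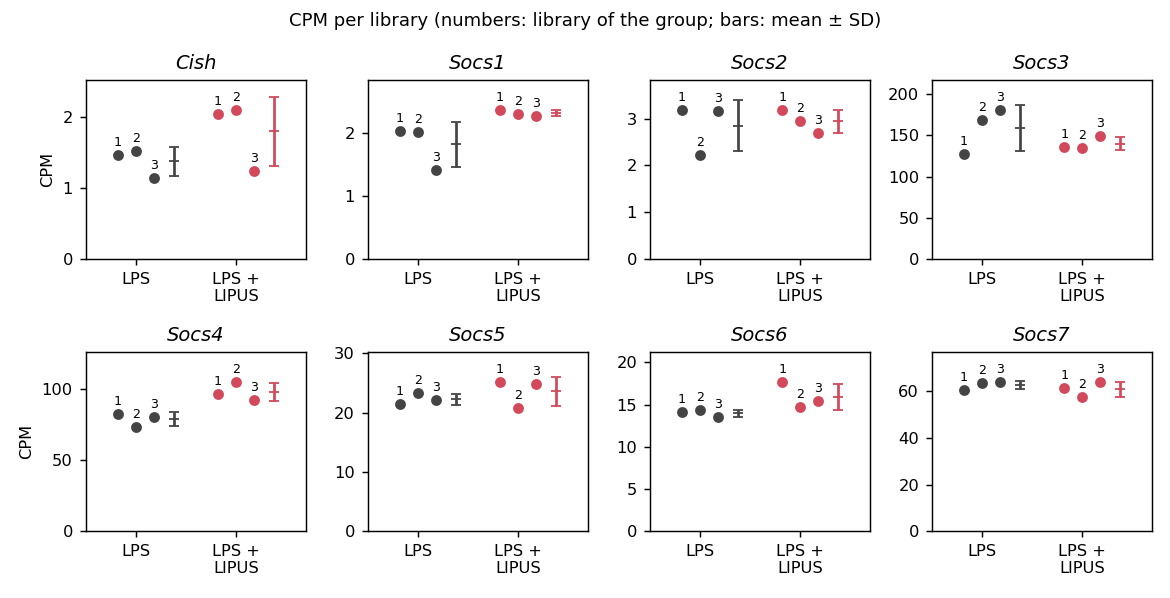
CPM of each member per library, on axes from 0. Numbers give the library within its group, and the bars beside the points show the mean ± SD (n = 3), grey for LPS and red for LPS with LIPUS. Socs4 is apart between groups (72.9 to 82.4 against 92.0 to 104.6 CPM), and Socs3 in LPS spreads from 127.5 to 181.1 CPM.

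**Figure D3:**
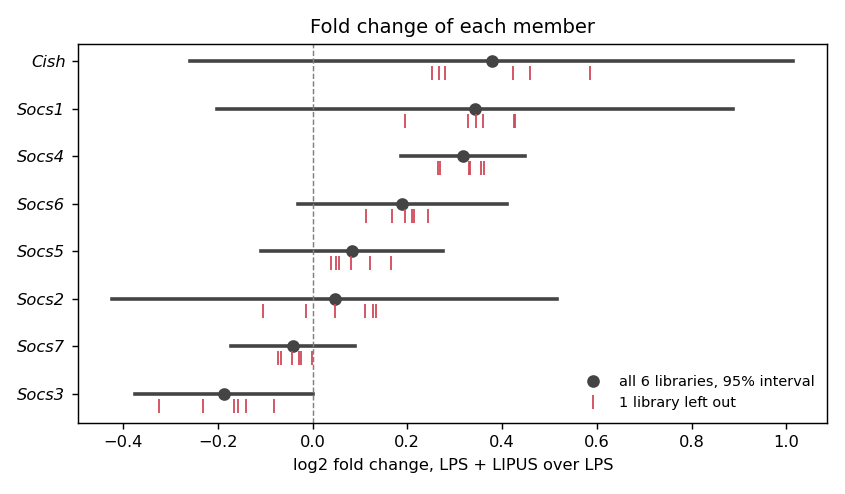
Fold change (log2) of LIPUS over LPS for each member with its 95% interval from the fit (grey), and the values with 1 library left out (red ticks). The interval of Socs4 lies above 0 and those of the other 7 members include 0.

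Because Fos, the AP-1 gene taken as the reference for early genes, varied between libraries of one group, the members were set beside it. Fos had 222.4, 388.8 and 488.8 CPM in LPS libraries 1 to 3 and 172.8, 182.9 and 326.3 CPM in LIPUS libraries 1 to 3. Socs3 followed the same order apart from its 3 lowest libraries. Over the 6 libraries the Pearson correlation of log2 CPM was 0.92 (exact permutation p = 0.0153, adjusted over the 8 members 0.0963) and Spearman's rho 0.77 (exact permutation p = 0.103, adjusted 0.165). After subtraction of each group's mean r was 0.91, and without the 2 libraries farthest from the median of Fos (LPS library 3 and LIPUS library 1) it was 0.90. None of the 8 relations passed the adjustment. By the same exact permutation test r was -0.86 for Cish (p = 0.0361, adjusted 0.0963), -0.77 for Socs1 (p = 0.0264, adjusted 0.0963), 0.80 for Socs7 (p = 0.0528, adjusted 0.106) and -0.75 for Socs4 (p = 0.104, adjusted 0.167). Socs1 had the strongest rank relation of the 8 (rho = -0.94, exact permutation p = 0.0167, adjusted 0.133), but its r was -0.38 without the same 2 libraries. For Socs2, Socs5 and Socs6 r was -0.41, 0.044 and -0.62 (adjusted exact permutation p = 0.232 to 0.935). Without the same 2 libraries r was -0.85 for Socs2, 0.86 for Socs5, 0.19 for Socs6 and 0.94 for Socs7. For Cish and Socs4 it was then -0.68 and -0.72. Fos (log2 fold change -0.69) and the members differed in mean between the groups, with members running from -0.19 for Socs3 to 0.38 for Cish. Each r over all 6 libraries therefore includes such a difference. After subtraction of each group's mean r was -0.80 for Cish, -0.60 for Socs1, -0.59 for Socs4 and 0.78 for Socs7. It was -0.40, 0.38 and -0.33 for Socs2, Socs5 and Socs6. So few libraries leave these values unstable. With libraries exchanged only within groups, which allows 36 arrangements and no p under 0.0278, Socs3 gave the smallest two-sided exact permutation p, 0.0556 (adjusted 0.444), and Cish 0.111 (adjusted 0.444).

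**Figure D4:**
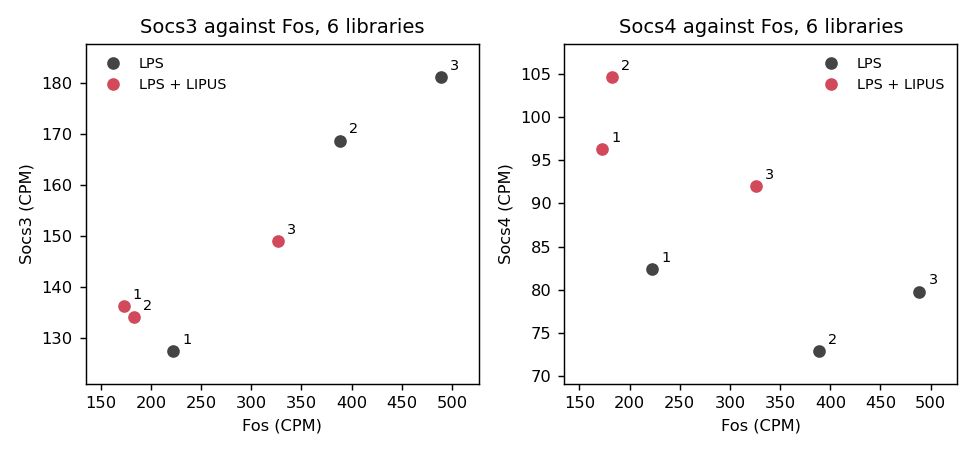
CPM of Socs3 (left) and Socs4 (right) against CPM of Fos in the 6 libraries, numbered within groups, grey for LPS and red for LPS with LIPUS. Neither axis starts at 0. The 2 LPS libraries with the most Fos, 2 and 3, also have the most Socs3, at 168.6 and 181.1 CPM.

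The genes whose log2 CPM followed a member most closely over the 6 libraries were ranked by Pearson's r among 8604 or 8605 tested genes with a mean of at least 10 CPM. For Socs3 they were Lrrc20 (r = 0.993), Pter (0.982), Gga3 (0.980), Dusp1 (0.978), a phosphatase gene of the early response, and Surf2 (0.977). Socs4 was followed by Zfp280c (0.995), Ccdc77 (0.988), Golga1 (0.986), Mndal (0.984) and Abtb2 (0.983). Nearest to Cish were Uba7 (0.985), Rad52 (0.973), Igsf8 (0.968), Adamts10 (0.966) and Mzt1 (0.965). With 6 libraries and so many genes high values are plentiful: 69, 75 and 65 genes exceeded 0.9 for Socs3, Socs4 and Cish.

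At transcript level the 8 genes had 41 annotated transcripts, and all were tested. By edgeR's quasi-likelihood test 0 of them passed, where 0% of 52257 transcripts (0 in all) did. An unadjusted p below 0.05 was found for 4, against 5.38% of all transcripts. Those 4 were the Socs4 transcript and the 3 of Socs3. A read can count for several transcripts in this table, so transcripts of a gene are not independent. Socs4 has a single transcript, NM_080843.3, which took 99.99% of its reads and had the gene's fold change (0.32 ± 0.07, SE, adjusted p = 0.226). The 3 Socs3 transcripts took 90.9% to 99.98% of the gene's reads each and had log2 fold changes of -0.21 to -0.19.

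Isoforms were spread most widely in Socs2, with 18 transcripts of 1346 to 6152 bases that each took 28.8% to 73.8% of its reads. The most read, NM_007706.4, had 41, 25 and 32 counts in LPS libraries 1 to 3, against 36, 29 and 29 with LIPUS, so neither group was the higher throughout. Its 18 log2 fold changes ran from -0.24 to 0.20, with 5 positive. The 3 Cish transcripts were all positive (0.25 to 0.43), as were both of Socs1 (0.34 and 0.43), the 6 of Socs5 (0.07 to 0.11) and the 5 of Socs6 (0.17 to 0.21). The 3 Socs7 transcripts were at -0.05 to -0.04. Annotated neighbours on the other strand, Gm33230 at Socs2 and Gm30510 at Socs5, had 8 and 12 counts in all libraries together.

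**Figure D5:**
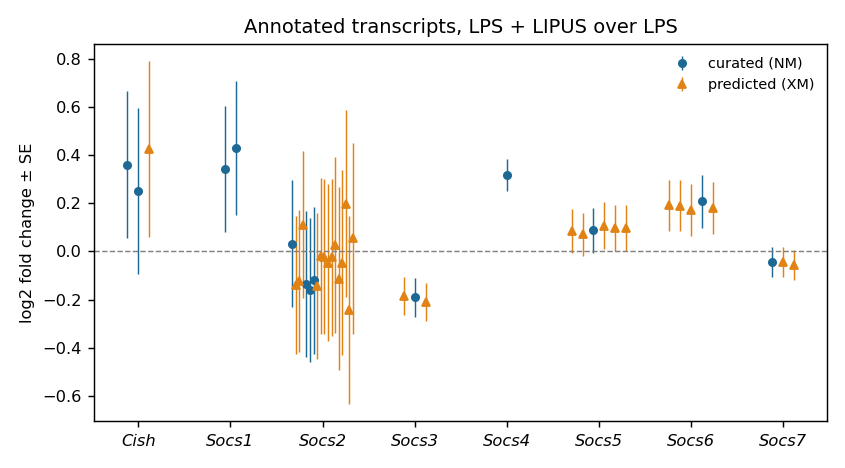
Fold change (log2) ± SE of LIPUS over LPS for the 41 annotated transcripts by gene, circles for curated and triangles for predicted RefSeq transcripts. Transcripts of Socs3 lie between -0.21 and -0.19, and those of Socs2 spread on both sides of 0.

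The rest of the pathway was described from gene lists, each set against the 12571 tested genes, of which 0% passed in either direction, 4.61% had an unadjusted p below 0.05 and whose median log2 fold change was -0.0052. In none of the lists did a gene pass edgeR's test in either direction. Among cytokine ligands, 8 of 32 genes were tested, with 0 at an unadjusted p below 0.05 and a median of 0.057. The smallest p belonged to Il11 (0.80 ± 0.09 against 1.196 ± 0.32 CPM, SD, n = 3 each) and Ebi3, a subunit of interleukin-27 (55.1 ± 2.27 against 51.5 ± 3.72 CPM). Il6, whose signal SOCS3 restrains, had 11 counts in all 6 libraries, while the gene of the granulocyte factor G-CSF, Csf3, another SOCS3-restrained signal, had 19.7 ± 4.16 CPM in LPS and 23.1 ± 7.73 CPM in LIPUS libraries. Among the other ligands of the list, Osm had 14.9 ± 0.57 CPM in LPS and 15.5 ± 1.39 CPM in LIPUS libraries. Lif had 5.83 ± 1.30 and 6.07 ± 0.29 CPM. Il6, Csf3, Osm and Lif were named after their values were seen.

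Of 37 receptor genes, 25 were tested and 3 had an unadjusted p below 0.05, with a median of -0.00058. Csf3r, the receptor of G-CSF, had 5.94 ± 0.82 CPM in LPS and 4.35 ± 0.30 CPM with LIPUS, or -0.45 ± 0.17 on the log2 scale (SE, edgeR's adjusted p = 0.964). Il12rb2, a subunit of the interleukin-12 receptor, was at -0.61 ± 0.27. Of the kinases and STATs 10 of 11 were tested, 0 had an unadjusted p below 0.05, and their fold changes lay between -0.064 and 0.057. Tyk2 (-0.06 ± 0.05) and Stat6 (-0.06 ± 0.06) had the smallest p. Stat4, named after its values were seen, had no count in any library.

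The other inhibitors of the pathway (PIAS proteins, phosphatases, CBL ligases and USP18) were all tested, 13 of 13, with 1 at an unadjusted p below 0.05 and a median of -0.019. Ptprc, which encodes the phosphatase CD45, had 165.4 ± 5.21 against 184.0 ± 6.65 CPM (log2 fold change 0.15 ± 0.05, edgeR adjusted p = 0.842), and Usp18, an interferon receptor inhibitor, was at -0.11 ± 0.05. The list of ligase partners of the SOCS box, which is not limited to the cullin 5 ligase, held 10 genes, all tested. It had 0 at an unadjusted p below 0.05 and a median of -0.025. Ube2m (-0.09 ± 0.05) and Eloc (-0.06 ± 0.08) had its smallest p. Of 27 other SOCS-box genes 13 were tested, with 1 at an unadjusted p below 0.05 and a median of -0.035. Neurl2 was at 0.30 ± 0.10 and Spsb1 at -0.35 ± 0.20.

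Downstream, 18 of 25 SOCS substrates and partners were tested, with 1 at an unadjusted p below 0.05 and a median of -0.023. Kit and Egfr, the receptor genes linked above to Socs6 and Socs4, had no count in any library. They were named after their values were seen. Rasa1, which encodes a RAS GTPase-activating protein, was at 0.18 ± 0.08, and the kinase gene Pim2 at -0.31 ± 0.16. Of 27 STAT-induced genes 23 were tested, with 0 at an unadjusted p below 0.05 and a median of -0.012. Irf9, an interferon-response transcription factor gene, was at -0.17 ± 0.08, and Gbp5, an interferon-induced GTPase gene, at -0.57 ± 0.29. Of 22 immediate early genes all were tested, with a median of -0.051. An unadjusted p below 0.05 was found for 7, all lower with LIPUS. Against 9.72% of all tested genes, 0 of these 22 had groups that did not overlap in CPM. Their summed level was 2011 to 2849 CPM in LPS and 2053 to 2403 CPM in LIPUS libraries. The smallest p belonged to Fos (-0.69 ± 0.22 on the log2 scale, edgeR adjusted p = 0.794) and Klf2 (-0.37 ± 0.13). Beyond the relation to Fos given above, the part of this variation in the Socs3 values was not tested.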

How the data were processed

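The 6 libraries, 3 per group, were made from poly(A) RNA of RAW264.7 cells. Per the submitters' processing notes, reads were handled with bcl2fastq and mm10. For the aligner, counter, annotation release and strand setting, no source used here gives a name. The authors deposited raw counts per gene and per transcript, TPM made from the count and the deposited length, and their own comparison with a log2 fold change, an unadjusted p-value and a normalised count (a signal) per library. The file headers name no test, and edgeR's exact test gave the deposited p-values within 5.16e-10.

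Everything else was computed in R 4.3.3 from the deposited counts: edgeR 4.0.16's quasi-likelihood test, two-sided, TMM scaling, group as the one term, filterByExpr (minimum count 10), Benjamini-Hochberg adjustment over all genes tested and a threshold of 0.05. CPM is relative to TMM-scaled library size. The filter kept 12571 genes and 99.9% of counts, with a biological coefficient of variation of 5.84%. Intervals are from the fit. Alternatives used DESeq2 1.42.0, limma 3.58.1, other scalings and filters, log2(TPM + 1) and log2(TPM + 0.1), a gene length offset, a block for the replicate number, and fits that drop 1 library. The exact test and the curated transcript lengths were added after the data were seen. The members and lists were chosen with earlier results of these data known. Named genes are all members, the 2 genes of smallest p per pathway list, the 5 nearest by correlation to Socs3, Socs4 and Cish, and Fos. Genes outside this rule are said to be so, apart from the 2 neighbours that overlap a member. Coordinates are the deposited ones on mm10 and start at 1.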

Additional observations from a re-analysis of the deposited data

How the results depend on the processing

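The 8 members' fold changes kept their direction in 142 of 144 alternative values, and 2 of the 144 passed the threshold, both for Socs4. The exceptions were Socs2, at -0.10 without LPS library 2 and -0.013 without LIPUS library 1, in a range up to 0.134 when 1 library was left out. The count of members past the threshold was 1 with no filter on low counts and 0 to 1 when 1 library was left out, and the counts of their transcripts were 1 and 0 to 1 under the same settings. In each case the library whose omission gave the call was LIPUS library 3. The count over all genes was 31 with no filter, 7 by edgeR's exact test, 5 with the replicate number as a block, 5 with the block and the gene length offset, and 0 to 6 when 1 library was left out. The cause was not tested. The deviations of same-numbered libraries of the 2 groups had correlations of -0.051 to 0.017 across genes. For differently numbered libraries they ran from -0.068 to 0.054, so these ranges overlap. Whether the numbers pair the samples was not tested. The block called 0 members. In the order by level, 3 members held their place with CPM in place of TPM and 4 with the curated transcript's length, while the order stayed at 8 of 8 when any 1 library was left out. Scalings moved the median fold change of all genes by less than 0.1. Depth limits Cish, Socs1 and Socs2, at 17 to 50 counts per library, to 95% intervals of the fold that together run from 0.75 to 2.02.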
